A study of Mus musculus with 9 samples.

Results

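The genes described here are 4 aquaporins and 1 urea transporter of the mouse cornea: Aqp1, Aqp3, Aqp4, Aqp5 and Slc14a1. They were chosen by name, as 5 of the 34142 gene names in the count table, and they were chosen with their values in these libraries already known. Their levels and fold changes are therefore given as descriptions, without p-values. Bulk RNA sequencing of whole corneas gave 9 libraries. The WT group held 3 libraries of untreated wild-type mice, and the KO group held 2 libraries of untreated Aire KO mice. The KO + PBS group held 4 libraries of Aire KO mice given PBS, a buffered salt solution. The sample titles put the untreated mice at 5 weeks of age and the KO + PBS samples at 24 hours, whereas the series design gives 6 weeks of age and day 7 of treatment, so the age and time of the KO + PBS samples could not be settled from the labels. The Aire allele, the strain and the way PBS was given are not stated there. Replicates are called biological, without saying whether a library is 1 mouse or a pool.

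Aquaporins are membrane channels that let water cross cells along an osmotic gradient, and Aqp3 also passes glycerol. Slc14a1 encodes UT-B, a channel-like transporter that lets urea move down its gradient and is best known from red blood cells and the vessels of the kidney. In the cornea, Aqp5 and Aqp3 are known from the epithelium and Aqp1 from the endothelium and the keratocytes of the stroma, while Aqp4 is known mainly from glia, including the Müller cells of the retina. The transparency of the cornea depends on keeping the stroma at a low water content. Aire encodes the regulator through which thymus cells display proteins of other tissues to developing T cells, and the series design presents its loss as a model of dry eye disease.

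The upstream sequence of a pair of members is shown because they differ in their core promoter letters. RefSeq promoters (build GRCm38.p6) were at hand for 3 of the 5 members, namely Aqp1, Aqp3 and Aqp5. The window of Aqp5 overlaps an annotated exon of GENCODE M21, so its letters are not all upstream sequence and it is not printed. The 250 bases before the RefSeq start lie at chr6:55336049-55336298 on the plus strand for Aqp1 and at chr4:41098184-41098433 on the minus strand for Aqp3. They read as follows, with matches to TATAAA and to GGGCGG on either strand in capitals.
Aqp1: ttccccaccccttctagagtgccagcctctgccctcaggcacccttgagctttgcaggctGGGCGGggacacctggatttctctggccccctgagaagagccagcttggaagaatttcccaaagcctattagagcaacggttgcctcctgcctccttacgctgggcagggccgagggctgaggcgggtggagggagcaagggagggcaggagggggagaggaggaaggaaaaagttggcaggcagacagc
Aqp3: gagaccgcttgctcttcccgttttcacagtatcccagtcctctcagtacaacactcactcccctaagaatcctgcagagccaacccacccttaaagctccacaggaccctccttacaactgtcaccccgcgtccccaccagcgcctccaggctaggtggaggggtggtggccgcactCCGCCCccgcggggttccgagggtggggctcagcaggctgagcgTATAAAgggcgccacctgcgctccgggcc
The Aqp3 window held TATAAA starting 29 bases before the gene start, and 12.4% of 32851 mouse promoter windows of the same length held these letters on either strand. TATAAA was not found in the windows of Aqp1 and Aqp5. The Aqp1 window ends before the GENCODE M21 gene start at 55336432, and the bases between them were not searched. GGGCGG was found once in Aqp1, once in Aqp3 and in 2 places in Aqp5, against 32.7% of all windows with at least 1 match. Of the other motifs searched on both strands, CACGTG had 1 match, in Aqp5, and TTCNNNGAA had none in these 3 windows, against 6.02% and 7.02% of all windows. These matches describe the letters of the windows and say nothing about binding or about the levels of the genes.

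The libraries held 22944576 to 104518572 counts, and 3 counts, taken as the limit that a count of 0 allows, were worth 0.0287 to 0.131 CPM, that is, counts scaled to a common library size. Aire itself was near that limit, with 4, 16 and 3 counts in WT, 0 and 3 in the KO libraries and 7, 9, 7 and 2 in those with PBS, so it could not be used to check the labels. Markers of corneal epithelium, stroma and endothelium were detected in every library. The KO + PBS libraries differed in kind from the untreated ones: 0.284% to 0.353% of their counts fell on genes annotated as processed pseudogenes, against 17.4% to 21.8% in WT and KO, and mitochondrial genes held 0.797%, 6.13%, 0.924% and 0.882% of their counts, against 0 counts in the untreated libraries. KO + PBS replicate 2 thus stood apart in its mitochondrial share. PBS treatment and this difference between the libraries cannot be told apart, and every comparison with KO + PBS below carries it. CPM values are scaled with edgeR's TMM factors unless stated otherwise. By library totals alone the median log2 fold change of all tested genes was 0.79 for KO + PBS against KO and 0.76 for KO + PBS against WT, whereas under TMM it was -0.02 and 0.05. The 5 members share no exon bases with another annotated gene. A search by name found 1 annotated pseudogene called after an aquaporin or Slc14a gene. Pseudogenes under other names were not searched, so whether the members have copies among them was not tested.

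Per kilobase of exon, the 5 members kept the same order in all 9 libraries, from Aqp5 through Aqp3, Aqp1 and Slc14a1 to Aqp4. In WT the mean level of Aqp5 was 3458 ± 293 CPM per kilobase (SD, n = 3), that of Aqp3 503 ± 58.2, that of Aqp1 229 ± 13.3, that of Slc14a1 15.5 ± 1.08 and that of Aqp4 0.0436 ± 0.0229. In KO (n = 2) the same levels were 4268 ± 1127, 472 ± 195, 49.7 ± 10.5, 0.611 ± 0.222 and 0.0368 ± 0.0241 CPM per kilobase. In KO + PBS (n = 4) they were 1853 ± 359, 681 ± 216, 150 ± 91.1, 20.3 ± 15.3 and 0.437 ± 0.210 CPM per kilobase. Within a group, the libraries' values of neighbours in this order did not overlap. The cornea thus held water channel transcripts of very different abundance, with the epithelial channels at the top.

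**Figure D1:**
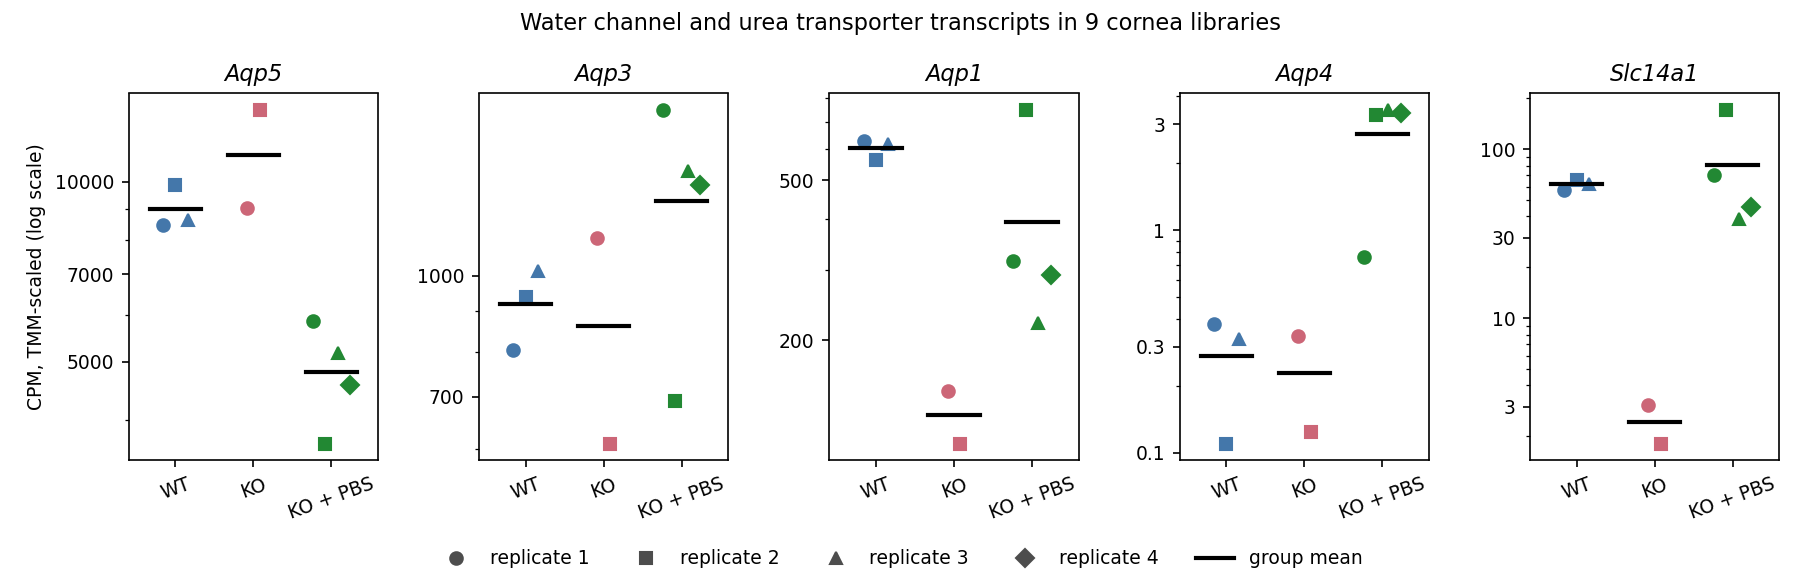
TMM-scaled CPM (log axis, 1 panel per gene, each with its own range) of Aqp5, Aqp3, Aqp1, Aqp4 and Slc14a1 in each library; the marker shape gives the replicate number, the colour the group and the black line the group mean. Slc14a1 lies at 1.81 and 3.07 CPM in the KO libraries and at 38.7 CPM or more in all others, and Aqp4 is above 3 CPM only in KO + PBS replicates 2, 3 and 4.

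Aqp5, the main water channel of the corneal epithelium and of tear and salivary gland acini, was the most abundant member. The gene lies on chromosome 15 from 99590782 to 99594829 on the plus strand (build GRCm38, as for all genes here). Its level was 8471, 9860 and 8627 CPM in WT, 9022 and 13164 CPM in the KO libraries, and 5854, 3654, 5182 and 4577 CPM in those with PBS. The 4 KO + PBS libraries were below all 5 untreated ones, while KO overlapped WT, with KO replicate 2 the highest of all. The means were 8986 ± 761, 11093 ± 2928 and 4817 ± 934 CPM, in the order WT, KO and KO + PBS (SD, n = 3, 2 and 4, here and for the other members). The log2 fold change ± SE was 0.30 ± 0.25 for KO against WT, -1.20 ± 0.23 for KO + PBS against KO and -0.90 ± 0.21 for KO + PBS against WT.

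The size of the Aqp5 difference in KO + PBS, and whether it was called, depended on the scaling. By library totals alone it was 7352 ± 367 CPM in WT, 8376 ± 1348 CPM in the KO libraries and 6320 ± 573 CPM in those with PBS, and the log2 fold changes were -0.41 against KO and -0.22 against WT, neither of them called, although the highest KO + PBS library, at 6843 CPM, was still below the lowest untreated one, at 6972 CPM. Aqp5 as a share of the per-kilobase total of the 12 water channel genes in the table does not depend on any scaling between libraries. That share was 80.7% to 83.7% in WT, 83.8% and 93.0% in the KO libraries and 67.7% to 70.5% in those with PBS. The KO + PBS libraries were below the others, but such a share also falls when another channel is higher, and the share of Aqp3 was 18.2% to 27.6% in KO + PBS against 6.13% to 14.7% in the untreated libraries. Per 100 CPM of summed corneal epithelium markers (12 of 12 listed genes detected), Aqp5 stood at 9.79 to 9.94 CPM in WT, 12.2 and 12.3 CPM in KO, 12.9 CPM in KO + PBS replicate 2 and 8.77 to 9.29 CPM in its other libraries. Both KO libraries were above WT on this measure, and in KO + PBS replicate 2 was above all untreated libraries and the others below them. Without Krt12 and Aldh3a1, a keratin and an aldehyde dehydrogenase that make up most of the sum in WT, Aqp5 stood at 25.8 to 26.5 CPM in WT, 26.1 and 31.3 CPM in KO and 12.8 to 20.4 CPM in KO + PBS, where KO + PBS lay below both. The place of replicate 2 thus depended on those markers.

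The summed lacrimal gland markers were higher in both KO libraries than in WT, but in KO replicate 1 the sum was mostly the lactoferrin gene Ltf. There Pip, Lcn11 and Dmbt1 lay within the WT values, Car6 and Sval2 below them, and Prol1 and Bhlha15 above them. The summed level of the 8 listed markers was 32.8 to 50.0 CPM in WT, 213 and 502 CPM in KO and 6.78 to 95.5 CPM in KO + PBS. Without Pip, the prolactin-induced protein gene, which was at 315 CPM in KO replicate 2 and at 8.73 CPM in replicate 1, the sum of the other markers was 204 CPM for KO replicate 1 and 187 CPM for replicate 2, against 27.4 to 40.6 CPM in WT. Ltf went the other way from Pip, at 189 CPM in replicate 1 and 46.2 CPM in replicate 2. Replicate 2, which also had the highest Aqp5, exceeded replicate 1 in Bhlha15 and Dmbt1 as well. The same held for Lcn11 (69.4 against 1.39 CPM), Car6 (34.5 against 5.28 CPM) and Sval2 (27.1 against 0.432 CPM). Prol1 was lower in replicate 2, at 0.124 against 5.32 CPM. Without KO replicate 2 the log2 fold change of Aqp5 was -0.08 for KO against WT and -0.82 for KO + PBS against KO. The part of such gland RNA in the Aqp5 values was not tested. No marker in the list was at 0 in all libraries.

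Aqp3, the aquaglyceroporin of basal and intermediate epithelial cells, lies on chromosome 4 from 41092722 to 41098183 on the minus strand. It was measured at 804, 940 and 1013 CPM in WT, at 1115 and 611 CPM in KO, and at 1626, 691, 1360 and 1307 CPM in KO + PBS. Replicates 1, 3 and 4 of KO + PBS were above every untreated library, whereas replicate 2 was among the lowest. The means were 919 ± 107, 863 ± 357 and 1246 ± 396 CPM, and the groups overlapped. The log2 fold change was -0.09 ± 0.37 for KO against WT, 0.53 ± 0.36 for KO + PBS against KO and 0.44 ± 0.31 for KO + PBS against WT, none of them called.

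Relative to Aqp5 and to the summed epithelium markers, Aqp3 was higher in KO + PBS than in either untreated group. KO + PBS held 2.44, 2.44, 2.44 and 2.57 CPM of Aqp3 per 100 CPM of epithelium markers, with replicate 2 no longer apart, against 0.929, 0.944 and 1.17 CPM in WT and 1.51 and 0.569 CPM for the KO libraries. There were 10.5, 10.5 and 8.51 Aqp5 counts per Aqp3 count in WT, 8.09 and 21.6 in the KO libraries and 3.60, 5.29, 3.81 and 3.50 in those with PBS. In these ratios KO + PBS did not overlap either untreated group, while KO spread on both sides of WT. Aqp3 was also called higher in KO + PBS without replicate 2, with a log2 fold change of 0.74 against KO and 0.65 against WT. By library totals alone it was called with a log2 fold change of 1.26 against KO and 1.10 against WT. The epithelium markers themselves summed to 28266 CPM in KO + PBS replicate 2 and to 50875 to 66742 CPM in its other libraries, against 86515 to 99635 CPM in WT and 74031 and 107369 CPM for the KO libraries. This sum is carried by Krt12 and Aldh3a1: of the 12 markers, 3 were called higher and 4 lower in KO + PBS against KO, and 5 higher and 3 lower against WT. Over all genes, 23.6% were called higher and 29.7% lower against KO, and 27.1% and 30.0% against WT. Without Krt12 and Aldh3a1 the ratio for Aqp3 was 3.54 to 3.87 CPM in KO + PBS, 2.45 to 3.10 CPM in WT and 3.22 and 1.45 CPM for the KO libraries, so KO + PBS was still above both, by less. These ratios were chosen after the values had been seen.

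Aqp1, the water channel of the corneal endothelium and of keratocytes, lies on chromosome 6 from 55336432 to 55348555 on the plus strand. Its level was 626, 561 and 615 CPM in WT, 150 and 111 CPM in the KO libraries, and 315, 748, 221 and 291 CPM in those with PBS. Both KO libraries were below every other library. In KO + PBS, replicate 2 exceeded all WT libraries and the other 3 lay between KO and WT. The means were 601 ± 34.9, 130 ± 27.7 and 394 ± 239 CPM. The log2 fold change was -2.20 ± 0.50 for KO against WT, which is 4.61-fold lower, 1.59 ± 0.47 for KO + PBS against KO and -0.61 ± 0.38 for KO + PBS against WT.

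The KO + PBS value rested partly on replicate 2, the library with 6.13% mitochondrial counts, whose part in its values was not tested. Without it, Aqp1 had a log2 fold change of 1.09 against KO and -1.12 against WT, both called. Without KO replicate 1 its difference between KO + PBS and KO, at 1.92, was not called, nor was that without KO replicate 2, at 1.49. The difference between KO and WT was not called over all 9 libraries, and was called in the fit to the 5 untreated libraries alone, where it was -2.20 ± 0.18. In a whole cornea, fewer cells of a type and less RNA per cell cannot be told apart, for Aqp1 or for any other gene here.

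Aqp1 was set beside the markers of both cell layers that are known to make it. The 10 stroma markers summed to 12807 to 13940 CPM in WT, 2969 and 3807 CPM in the KO libraries and 1484 to 6783 CPM in those with PBS. Of these 10 genes, which include the keratocyte proteoglycan genes Kera and Lum, 5 fell and none rose in KO against WT. Over all genes tested, 0.703% were called lower and 0.963% higher in that comparison. The 8 endothelium markers summed to 655 to 719 CPM in WT, 279 and 242 CPM in the KO libraries and 776 to 2567 CPM in those with PBS, highest in replicate 2, and 2 of them fell in KO against WT. Both lists were thus lower in the KO libraries, as Aqp1 was, and their part in its values was not tested.

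Per 100 CPM of stroma markers, Aqp1 was at 4.80, 4.38 and 4.41 CPM in WT, 5.05 and 2.91 CPM in the KO libraries, and 21.2, 11.0, 10.8 and 6.48 CPM in those with PBS. KO overlapped WT in this ratio and KO + PBS lay above both. Per 100 CPM of endothelium markers, Aqp1 was at 85.5 to 89.5 CPM in WT, 53.7 and 45.7 CPM in KO, and 20.5 to 37.5 CPM in KO + PBS. Here the gap between KO and WT rested on Alcam, a cell adhesion gene that was not lower in KO, at 154 and 133 CPM against 118 to 134 CPM in WT. Without Alcam the ratio was 105 to 108 CPM in WT, 120 and 101 CPM in KO, and 23.4 to 46.8 CPM in KO + PBS, so that KO overlapped WT while KO + PBS lay below both. The position of KO + PBS against WT thus turned on which layer Aqp1 was set against.

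Slc14a1 showed the widest difference between KO and WT among the members. The gene lies on chromosome 18 from 78100091 to 78142119 on the minus strand. Its level was 57.5, 66.1 and 62.3 CPM in WT, 3.07 and 1.81 CPM in the KO libraries, and 70.2, 170, 38.7 and 45.5 CPM in those with PBS. The KO libraries held 64 and 88 counts, well above the limit of 3, against 1813 to 5395 counts in WT and 1384 to 5996 in KO + PBS. The KO libraries were below all others, and KO + PBS overlapped WT. The means were 61.9 ± 4.31, 2.44 ± 0.889 and 81.2 ± 60.9 CPM.

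Slc14a1 had a log2 fold change of -4.69 ± 0.72 for KO against WT, 25.9-fold lower, and of 5.08 ± 0.72 for KO + PBS against KO, 33.9-fold higher. For KO + PBS against WT it was 0.39 ± 0.48. Replicate 2 set the sign of the last value, which was -0.26 without it, while that for KO + PBS against KO was then 4.45. Over 18 alternative settings the log2 fold change for KO against WT stayed between -5.17 and -4.42. Its call for KO against WT was lost when any 1 of the 5 untreated libraries was left out, and with the replicate number as a block.

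Slc14a1 was lower in KO also relative to Aqp1 and to both sets of markers. Each library held 10.9, 8.49 and 9.88 Aqp1 counts per Slc14a1 count in WT, 48.9 and 61.2 in the KO libraries and 4.49, 4.39, 5.72 and 6.40 in those with PBS. The ratio separated all 3 groups, and in it KO + PBS replicate 2 lay with the other KO + PBS libraries. Per 100 CPM of stroma markers, Slc14a1 was at 0.441 to 0.516 CPM in WT, 0.103 and 0.0476 CPM in KO and 1.01 to 4.73 CPM in KO + PBS. Per 100 CPM of endothelium markers it was at 8.22 to 10.1 CPM in WT, 1.10 and 0.748 CPM in KO and 4.18 to 6.63 CPM in KO + PBS, and without Alcam at 9.89 to 12.6, 2.45 and 1.66, and 5.04 to 7.30 CPM. The KO libraries were the lowest on each of these measures. Red blood cell markers, listed because these cells carry UT-B, summed to 226 to 491 CPM in WT, 274 and 433 CPM in KO and 23.6 to 277 CPM in KO + PBS, and so overlapped between WT and KO. The sum in KO + PBS is not comparable with the others. The globin gene Hba-a2 had 0 to 2 counts there against 1700 to 6544 in the untreated libraries, while Hba-a1 had 393 to 5576 counts there.

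**Figure D2:**
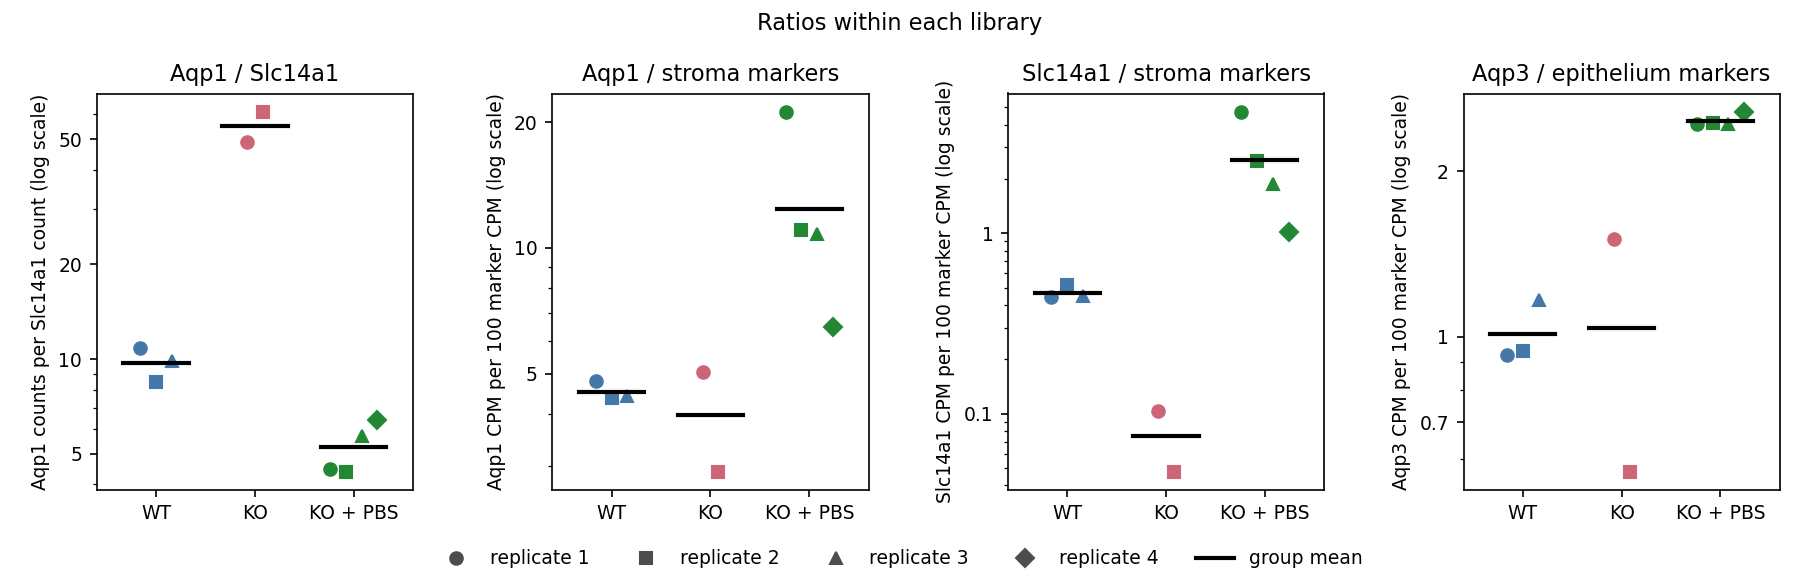
Ratios within each library (log axes, 1 point per library, marker shape by replicate number, black line at the group mean): Aqp1 counts per Slc14a1 count, Aqp1 and Slc14a1 CPM per 100 CPM of summed stroma markers, and Aqp3 CPM per 100 CPM of summed epithelium markers. The Aqp1 to Slc14a1 ratio is 48.9 and 61.2 in KO against 8.49 to 10.9 in WT and 4.39 to 6.40 in KO + PBS, and Aqp3 per epithelium markers is 2.44 to 2.57 in KO + PBS.

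Aqp4, the water channel of glial endfeet, had few counts in the untreated corneas. The gene lies on chromosome 18 from 15389496 to 15410982 on the minus strand. It had 12, 9 and 12 counts in WT, 7 and 6 in the KO libraries and 20, 116, 124 and 103 in those with PBS. In CPM these were 0.381, 0.110 and 0.325 in WT, 0.336 and 0.124 in the KO libraries and 0.758, 3.29, 3.47 and 3.37 in those with PBS. All KO + PBS libraries were above the untreated ones, and among them replicate 1 stood apart as the lowest.

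The means of Aqp4 were 0.272 ± 0.143, 0.230 ± 0.150 and 2.72 ± 1.31 CPM. The log2 fold change was -0.28 ± 0.86 for KO against WT, 3.64 ± 0.89 for KO + PBS against KO, which is 12.5-fold higher, and 3.36 ± 0.72 for KO + PBS against WT. Aqp4 passed the filter on low counts only through the 4 KO + PBS libraries, as none of the untreated ones reached its cutoff of 0.369 CPM by library totals. It thus had to be higher in KO + PBS to be fitted at all. Without KO replicate 2 its difference from KO was no longer called, at a log2 fold change of 3.12.

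Among the KO + PBS libraries, the summed markers of the retina were lowest in replicate 1, as Aqp4 was. This was not particular to the retina. The sums of stroma, conjunctiva, lacrimal gland, iris and melanocyte, blood vessel and Schwann cell markers were also lowest in replicate 1. Those of epithelium, endothelium, meibomian gland, lens, red blood cell, skeletal muscle and leukocyte markers were not. In replicates 2, 3 and 4 Aqp4 was level, at 3.29, 3.47 and 3.37 CPM, while the retinal sums were not. The 10 photoreceptor markers summed to 42.0 CPM in replicate 1 and to 353, 1294 and 1006 CPM in replicates 2, 3 and 4, against 48.2 to 396 CPM in WT and 19.1 and 32.6 CPM for the KO libraries. All 10 rose in KO + PBS against KO and 1 of 10 against WT, beside 23.6% and 27.1% of all genes. The 6 Müller glia markers summed to 23.6 CPM in replicate 1 and to 122, 55.7 and 47.2 CPM in the others, against 25.4 to 39.8 CPM in WT and 10.6 and 15.6 CPM for the KO libraries. Of the 6, 3 rose in KO + PBS against KO and 3 against WT. One of them, Kcnj10, the potassium channel found with Aqp4 in glial endfeet and singled out after its values were seen, had 3 counts in replicate 1 and 92, 112 and 100 in the others. Rlbp1, Abca8a, Gpr37 and Car14 were also lowest in replicate 1, Car14 narrowly, at 3.33 CPM against 34.8, 6.43 and 3.73 CPM. Slc1a3 was not, at 12.7 CPM against 18.5, 12.5 and 13.9 CPM. Abca8a was at 14.1 to 16.4 CPM in WT, above KO + PBS replicates 1, 3 and 4. No marker of either list was at 0 in all libraries, and the part of retinal RNA in the Aqp4 values was not tested. WT replicate 1 held 396 CPM of photoreceptor markers with 12 Aqp4 counts.

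**Figure D3:**
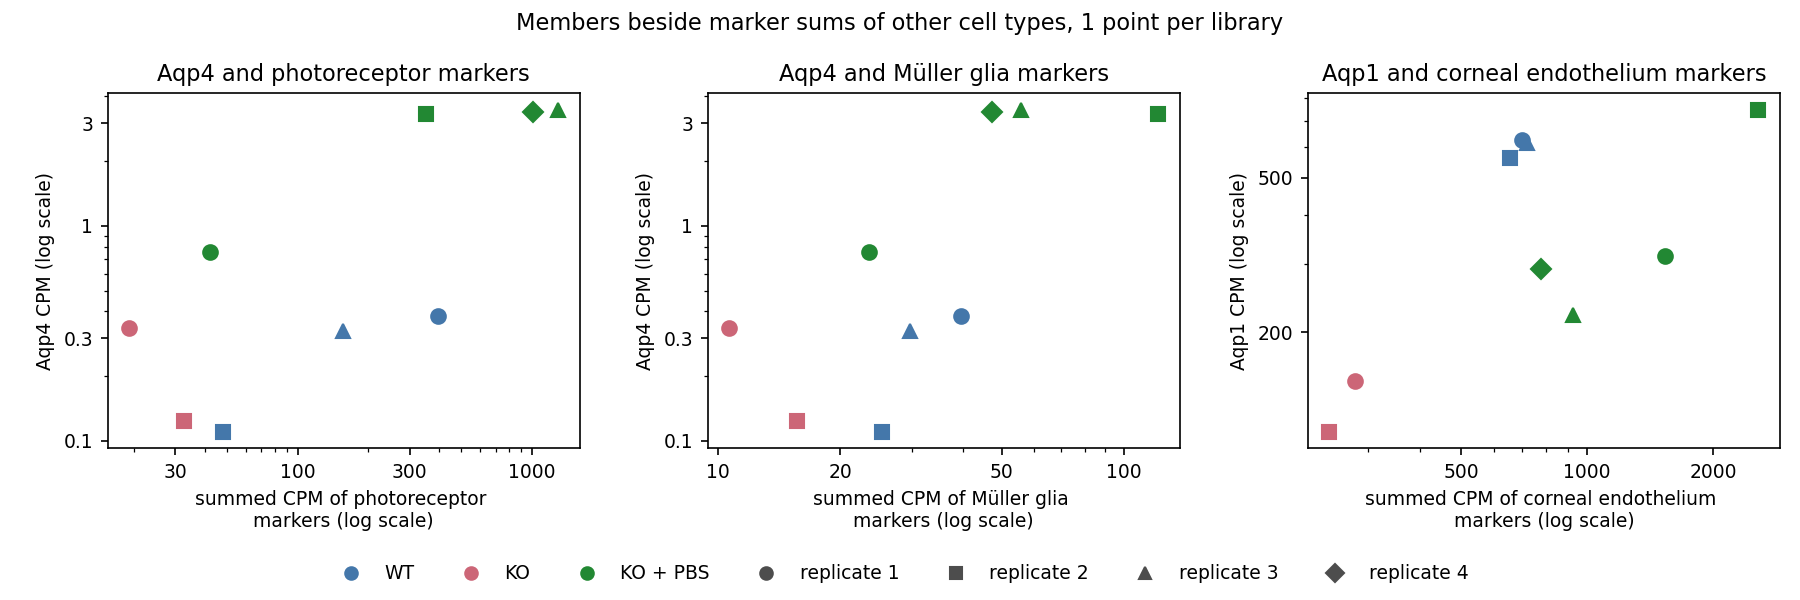
CPM of a member (vertical, log axis) against the summed CPM of a marker list (horizontal, log axis), 1 point per library, coloured by group and shaped by replicate number, for Aqp4 with photoreceptor and Müller glia markers and Aqp1 with corneal endothelium markers. KO + PBS replicate 1, at 0.758 CPM of Aqp4, has 42.0 CPM of photoreceptor markers, and the KO libraries are lowest in both Aqp1 and the endothelium sum.

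Between KO and WT, 1 of the 5 members was called at an adjusted p under 0.05 (edgeR's quasi-likelihood test, Benjamini-Hochberg), namely Slc14a1, beside 1.67% of the 18489 genes tested, 0.963% higher and 0.703% lower. In the fit to the 5 untreated libraries alone Aqp1 was called as well, beside 20.4% of 18006 genes, 11.5% higher and 8.99% lower. The libraries of both groups did not overlap for Aqp1 and Slc14a1, both lower in KO, beside 51.3% of all genes, 24.9% higher and 26.4% lower. Between KO + PBS and KO, 4 members were called, with Aqp1, Aqp4 and Slc14a1 higher and Aqp5 lower, beside 53.4% of all genes, 23.6% higher and 29.7% lower. The same 4 did not overlap, beside 60.9%, 26.9% higher and 34.0% lower. Between KO + PBS and WT, Aqp4 was called higher and Aqp5 lower, beside 57.1% of all genes, 27.1% higher and 30.0% lower. The same 2 did not overlap, beside 60.1%, 26.7% higher and 33.5% lower. As the members were chosen with these values known, nothing is read from the counts. The comparisons share libraries, so that a low KO value enters both KO comparisons.

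**Figure D4:**
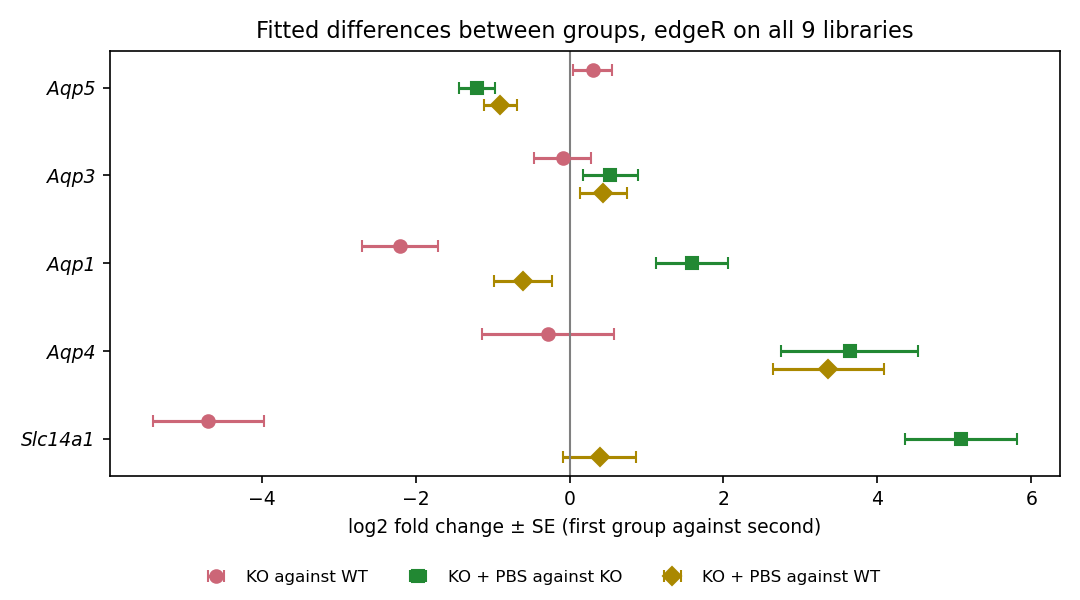
Log2 fold change ± SE (horizontal) of each member in the 3 comparisons, from 1 edgeR fit to all 9 libraries with TMM scaling. Slc14a1 and Aqp1 lie left of 0 for KO against WT and right of 0 for KO + PBS against KO, and Aqp5 lies left of 0 in both comparisons with KO + PBS, where library totals alone give -0.41 and -0.22 and no call.

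The remaining water channels were scarce. Of 8 further genes of the family, 3 passed the filter on low counts, namely Aqp2, Aqp11 and Mip. Mip, the water channel of lens fibres, was at 0.158 ± 0.0483 CPM in KO, 0.429 ± 0.180 CPM in WT and 5.34 ± 3.84 CPM in KO + PBS, a log2 fold change of 5.11 ± 0.85 against KO and 3.64 ± 0.63 against WT. It passed the filter only through the KO + PBS libraries, since 1 WT library and no KO library reached the cutoff, so no p is given for it. The lens markers, none at 0 in all libraries, summed to 323 to 5381 CPM in KO + PBS, 130 to 376 CPM in WT and 136 and 143 CPM for the KO libraries. Their part in the Mip values was not tested. Aqp2, the vasopressin-regulated channel of the kidney and a neighbour of Aqp5 on chromosome 15, fell from 12.3 ± 2.64 CPM in WT to 5.72 ± 1.86 CPM in KO + PBS (-1.10 ± 0.29, adjusted p = 0.00987). This fall is under TMM scaling, and falls in KO + PBS were fewer by library totals alone, as described below. Aqp8, which did not pass the filter and was singled out after its values were seen, had 47 counts in KO replicate 2, the library rich in lacrimal markers, and at most 6 in any other. The second urea transporter gene, Slc14a2, had 0 to 16 counts per library and was not tested.

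Genes that work with these channels were taken from 7 lists, of which the ion, osmotic, anchoring, glycerol and urea lists follow. Of the 73 genes in all lists, 65 were tested, and 1 fell and none rose in KO against WT, beside 0.703% and 0.963% of all genes. That gene was Ass1, argininosuccinate synthase of the urea and arginine pathway, which went from 64.6 ± 3.34 CPM in WT to 22.0 ± 3.02 CPM in KO (-1.55 ± 0.21, adjusted p = 0.0221). This call was lost when any 1 of the 5 untreated libraries was left out, and with the replicate number as a block. In KO + PBS it was at 41.8 ± 8.21 CPM, higher than in KO (0.93 ± 0.20, adjusted p = 0.00364) and lower than in WT (-0.63 ± 0.16, adjusted p = 0.00977). The enzyme of the next step, Asl, fell in KO + PBS from 34.7 ± 1.57 CPM in WT to 25.0 ± 3.71 CPM (-0.48 ± 0.15, adjusted p = 0.0242). Of the 9 tested genes of this list, Ass1 and the arginine transporter gene Slc7a1 rose and Asl fell in KO + PBS against KO, and against WT Ass1 and Asl fell. Over all genes, 23.6% rose and 29.7% fell against KO, and 27.1% and 30.0% against WT. The falls in KO + PBS are under TMM scaling. The median log2 fold change of all genes against WT was 0.05 under TMM and 0.76 by library totals alone. That shift is larger than the Ass1 and Asl falls against WT, so their direction depends on the scaling. By library totals alone, 3 of the 65 related genes fell against KO and 2 against WT, where 6 and 6 fell under TMM. The arginase gene Arg2, also called against WT, passed the filter only through KO + PBS, where it was at 0.976 ± 0.252 CPM, against 0.121 ± 0.110 CPM in WT.

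In the fit to the 5 untreated libraries alone, 10 of 64 related genes rose and 6 fell in KO against WT, beside 11.5% and 8.99% of all genes, so the lists were near the share of all genes. The sodium bicarbonate cotransporter gene Slc4a4, a part of the endothelial fluid pump, fell from 24.4 ± 1.05 to 4.41 ± 0.748 CPM (-2.44 ± 0.16, adjusted p = 0.000421). The sodium pump subunit gene Atp1b1 fell from 11.0 ± 1.69 to 1.99 ± 0.308 CPM (-2.47 ± 0.23, adjusted p = 0.00134). Glycerol kinase, listed as Gyk, rose from 37.3 ± 2.84 to 84.5 ± 12.5 CPM (1.19 ± 0.13, adjusted p = 0.00228). Aldose reductase, listed as Akr1b3 and the source of the osmolyte sorbitol, rose from 329 ± 17.3 to 622 ± 10.4 CPM (0.93 ± 0.12, adjusted p = 0.004). The betaine transporter gene Slc6a12, also of the osmotic list, had 17, 8 and 2 counts in WT and 61 and 124 in KO, which is 0.230 ± 0.268 and 2.74 ± 0.263 CPM. It passed the filter of that fit only through the KO libraries, as did 2 of its 16 called genes in all, so no p is given for it. The marker sums that were lower in KO beside Aqp1 stand beside these values too.

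In KO + PBS against KO, 25 of the 65 related genes rose and 6 fell, beside 23.6% and 29.7% of all genes, and against WT 24 rose and 6 fell, beside 27.1% and 30.0%. Of those called, 1 against KO and 2 against WT, Mip and Arg2, passed the filter only through KO + PBS. The median log2 fold change over the 65 genes was 0.72 against KO and 0.81 against WT. By library totals alone the split was 42 to 3 against KO and 47 to 2 against WT, while over all genes it went from 4370 higher and 5500 lower to 8317 higher and 3262 lower against KO, and from 5002 and 5553 to 8848 and 3470 against WT.

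Of 22 ion and bicarbonate transport genes, 9 rose and 1 fell in KO + PBS against KO, beside 23.6% and 29.7% of all genes. The bicarbonate cotransporter gene Slc4a7 rose from 1.40 ± 0.527 to 19.4 ± 4.37 CPM (3.81 ± 0.37, adjusted p = 3.62e-05), and Atp1b1 rose from 1.99 ± 0.308 to 149 ± 106 CPM (6.24 ± 0.70, adjusted p = 8.84e-05). The chloride-proton exchanger gene Clcn3 rose from 18.1 ± 2.65 to 58.9 ± 14.4 CPM (1.70 ± 0.24, adjusted p = 0.000394). These 3 also rose against WT, where 7 genes of the list rose and none fell, beside 27.1% and 30.0% of all genes.

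Of 15 osmotic and volume response genes, 8 rose and 2 fell in KO + PBS against KO, beside 23.6% and 29.7% of all genes. Those that fell were Lrrc8a, the essential subunit of the volume-regulated anion channel, from 24.1 ± 0.179 to 5.74 ± 0.315 CPM (-2.07 ± 0.13, adjusted p = 1.23e-06), and Akr1b3, from 622 ± 10.4 to 165 ± 26.8 CPM (-1.91 ± 0.17, adjusted p = 2.08e-05). The chaperone gene Hspa4l rose from 7.02 ± 1.19 to 29.5 ± 7.53 CPM (2.08 ± 0.25, adjusted p = 0.000134). The kinase gene Sgk1, which regulates sodium transport, rose against WT from 65.7 ± 6.08 to 239 ± 60.0 CPM (1.86 ± 0.24, adjusted p = 0.000184).

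Of the 8 genes of the dystrophin complex that anchors Aqp4 in glial endfeet, 5 rose and 1 fell in KO + PBS against KO. Over all genes, 23.6% rose and 29.7% fell. Dystrophin itself, Dmd, rose from 1.24 ± 0.603 to 7.10 ± 1.40 CPM (2.49 ± 0.44, adjusted p = 0.00133), and the syntrophin gene Sntb2 rose from 10.5 ± 2.11 to 27.5 ± 8.93 CPM (1.40 ± 0.29, adjusted p = 0.00321). The dystrobrevin gene Dtnb fell from 127 ± 27.5 to 48.2 ± 5.35 CPM (-1.40 ± 0.18, adjusted p = 0.000162). Its relative Dtna rose against WT from 1.33 ± 0.408 to 6.99 ± 5.34 CPM (2.39 ± 0.55, adjusted p = 0.00511). Of 8 glycerol metabolism genes, only the phospholipase gene Pld2 was called against KO, where it fell from 56.4 ± 0.633 to 29.8 ± 4.60 CPM (-0.92 ± 0.15, adjusted p = 0.000952), whereas Gyk and Gpd2 rose against WT.

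The genes whose centred log2 CPM was nearest to that of each member over the 9 libraries were ranked by the root mean square difference, among 12135 other genes averaging at least 2 CPM. Those nearest to Slc14a1 were Dkk1 (0.32), Fgf10 (0.39) and Car9 (0.42). Those nearest to Aqp1 were Fbln5 (0.22), Ehd3 (0.23) and Arhgap28 (0.25). Aqp3 had closer neighbours in Slbp (0.09), Ticrr (0.10) and Ccna2 (0.12), of which Slbp serves histone mRNA and Ccna2 is cyclin A2. Aqp5 lay closest to Ascc1 (0.09), Asna1 (0.09) and Alg3 (0.10), and Aqp4, with few counts, to Ntng2 (0.57), Pacsin1 (0.59) and Psd (0.59). With the 5 untreated libraries alone, 0 of the 3 names remained for any member. The neighbours of Slc14a1 then ranked 6, 14 and 8, those of Aqp1 9, 47 and 37 and those of Aqp3 26, 15 and 126, whereas those of Aqp5 ranked 322, 273 and 92 and those of Aqp4 3734, 1413 and 29.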

How the data were processed

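Whole-cornea RNA was made into libraries with an Illumina RNA kit, per the labels' protocols. The authors deposited 1 table of whole-number counts per gene name, not normalized, and its columns were matched to samples by name. The submitters' processing notes name STAR, featureCounts and fastp, and the build mm10; which annotation, strand setting and rule for multiply mapped reads were used was not given in the sources used here, nor were versions. Since the labels do not say that replicates are separate animals, p-values measure only the spread between these samples. A group named in the series design, Lacripep-treated KO corneas, was not analysed here.

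Of 34165 names, 23 read as dates (0.0318% to 0.140% of counts) and were left out; 30452 of the rest matched GENCODE M21. Counts were fitted with edgeR 4.0.16 (limma 3.58.1, R 4.3.3) after filterByExpr and TMM scaling, with 1 robust quasi-likelihood model over all 9 libraries, and adjusted over all 18489 genes tested. Each SE was taken as the log2 fold change over the root of the F statistic. CPM are given as mean ± SD. Genes are called at an adjusted p under 0.05, and "rose" and "fell" are kept for called genes that are not members. The steps were tested on simulated counts. Limits from 3 counts cover counting error only. No library repeated another of its group, as the chi-square per degree of freedom between pairs was at least 18.8.

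The members, lists and ratios, and the marker sums without single genes, were chosen with earlier results of these data known. Named related genes are, per list and comparison, up to 3 called genes with the smallest adjusted p, and those named from the fit to the untreated libraries were picked after seeing their values. Alternatives were RLE and upper-quartile scaling, other filters, DESeq2 1.42.0, fits limited to the groups compared, a replicate block, genes counted in all 9 libraries, and leaving out each library; library totals alone were added after seeing the data.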

Additional observations from a re-analysis of the deposited data

Results flagged for a closer look

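Among 20 sets of values in groups of 4 libraries, 2 had a library far from the others by Dixon's ratio, the gap to the nearest library divided by the whole range, at its 95% critical value. Chance alone flags about 1 such group in 20. The first was Aqp4 in KO + PBS, where replicate 1, at 0.758 CPM, gave a ratio of 0.936. The second was the summed level of iris, ciliary body and melanocyte markers in KO + PBS, where replicate 2, at 3282 CPM against 127 to 408 CPM in the other libraries, gave a ratio of 0.911. In the same library Aqp1 and Slc14a1 were the highest of their group, at 748 and 170 CPM. Its stroma, endothelium and lens sums were also the highest of the group, at 6783, 2567 and 5381 CPM, and its epithelium sum the lowest. Among the untreated libraries the iris, ciliary body and melanocyte sum was highest in KO replicate 2, at 645 CPM. There Aqp1 and Slc14a1 were the lowest of all libraries, at 111 and 1.81 CPM. The part of any of these tissues in the values was not tested.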

How the results depend on the processing

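For KO against WT, 308 genes were called, 3356 at an unadjusted p under 0.05, and the count ranged from 0 to 2257 when 1 library was left out. It was 0 when any 1 WT library was left out, with 2184 to 2392 genes at an unadjusted p under 0.05, and 2257 without KO + PBS replicate 2. DESeq2 called 1870 genes and the fit to only these groups 3681. The members called, 1 in the full fit, were 2 under each of these and ranged from 0 to 2 with a library left out. The related genes called, 1 in the full fit, were 9 and 16, were 3 both with a filter of 1 CPM in 3 libraries and with genes counted in all 9 libraries, and ranged from 0 to 11. For KO + PBS against KO, 2 to 5 members and 20 to 38 related genes were called with a library left out, lowest without KO replicate 2, against 4 and 31. For KO + PBS against WT, 2 to 4 members were called, highest without KO + PBS replicate 2, and library totals alone called 49 related genes against 30. The causes were not tested. With 1 KO library left out, the other is assumed to vary like the other groups.

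With the replicate number as a block, 5 genes, 0 members and 0 related genes were called for KO against WT. Deviations from the group means correlated at -0.343 to 0.132 between samples of the same number and at -0.196 to 0.296 between samples of different numbers. In groups this small the deviations mirror each other, so these values cannot show whether samples of the same number belong together. Of 270 log2 fold changes of members under the alternatives, 250 moved by less than the SD between replicates and 20 by more, none of them called with the other sign. Counts of 6 to 12 for Aqp4 in the untreated libraries limit its values there.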
